A study of Mus musculus with 6 samples.

Results

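The MYC, MAX and MXD network was followed in 6 poly-A RNA libraries of the mouse neuroblastoma cell line M1. The network was taken as 10 named genes of the MYC family (Myc, Mycn and Mycl), their partner Max, and the antagonists Mxd1, Mxd3, Mxd4, Mxi1, Mnt and Mga. All 10 were found by symbol among 43629 mouse gene rows of the count table, and all 10 were among the 13445 genes with enough counts to be tested. The first group, shIGF2BP1, held 3 libraries of cells with a doxycycline-induced short hairpin RNA against Igf2bp1, which the labels call IGF2BP1 knockdown. The second, shNT, held 3 libraries of cells with a non-targeting hairpin, whose genotype the labels give as WT. Cells of both groups had been kept in doxycycline at 4 to 6 µg/ml for 6 days. Only 1 hairpin against Igf2bp1 is named in the labels, and nothing there says whether the cells of a group were clonal or whether replicates were separate cultures. The p-values therefore rest on the spread among these 6 samples alone, and that spread could be technical.

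MYC, MYCN and MYCL are basic helix-loop-helix leucine zipper transcription factors that bind DNA at E-box sequences only as dimers with MAX. MXD1, MXD3, MXD4, MXI1, MNT and MGA also dimerise with MAX, take the same sites, and recruit co-repressors, so that the network is usually described as a competition for MAX. In neuroblastoma MYCN is the best known driver, and tumours without extra copies of it often express MYC in its place. IGF2BP1, also known as the coding region determinant binding protein, was described in human cells as a protein that binds MYC mRNA near the end of its coding sequence and shields it from decay. The comparison of shIGF2BP1 with shNT asks how the transcripts of this network stand when that protein is targeted.

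Library totals lay between 25119655 and 34014482 counts in shIGF2BP1 and between 30756389 and 35373076 counts in shNT. A count of 3, the limit that a count of 0 allows, equals 0.0851 to 0.114 CPM, the count scaled to library size. Igf2bp1 (ENSMUSG00000013415; chromosome 11, 95957163 to 96005940, minus strand, GRCm38) had 67, 35 and 311 counts in the libraries labelled shIGF2BP1 and 37, 175 and 201 counts in the shNT libraries. Its log2 fold change was 0.25 ± 0.79 (SE; edgeR adjusted p = 0.966). The difference of mean log2 CPM, shIGF2BP1 minus shNT, had the other sign, at -0.14 (exact two-sided permutation p = 0.9). The sign thus depends on the measure. The targeted transcript was thus not measurably lower, and each direction given here is between libraries with those labels. By chi-square distance per gene, each of the other 5 libraries lay farthest from shNT replicate 3. The distance of shNT replicate 3 to them was 152 to 251, against 46.8 to 162 among those 5. The other shNT libraries, replicates 1 and 2, were 162 apart, and 82.8 to 140 from the shIGF2BP1 libraries. Among markers of the labelled cell type, Hand2 had 429 to 457 CPM in shIGF2BP1 and 257 to 480 CPM in shNT, and Gata3 and Isl1 were tested, whereas Th and Dbh had 0 counts in the 6 libraries. Of 9 leukocyte markers 3 were tested. Their list summed to 3.94 to 6.33 CPM in shIGF2BP1 and 8.29 to 15.4 CPM in shNT, and Adgre1, Cd3e and Tyrobp had 0 counts throughout. Of those 3, Cd68 made up most of the sum and was called lower in shIGF2BP1 by DESeq2 (adjusted p = 0.00811) and not by edgeR (adjusted p = 0.403). The other 2 had positive log2 fold changes, Lyz2 of 0.06 and Fcer1g of 2.57 (edgeR adjusted p = 0.616), at 1.07 CPM or less in each library. The part of these markers in the results was not tested.

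Myc was the member with the widest spread, and 1 library carried it. Myc (ENSMUSG00000022346) lies on the plus strand of chromosome 15 from 61985391 to 61990374 in GRCm38. It had 83, 242 and 238 counts in replicates 1 to 3 of shIGF2BP1, against 179, 372 and 3996 counts in replicates 1 to 3 of shNT. After normalisation these were 3.17, 6.86 and 8.68 CPM in shIGF2BP1, against 6.03, 10.9 and 121 CPM in shNT. The groups overlapped, since shNT replicate 1 lay below shIGF2BP1 replicates 2 and 3, and shNT replicate 3 was 11.1 times as high as the next highest library. Between groups edgeR gave -2.88 ± 0.94 (log2 fold change ± SE; 95% interval -4.94 to -0.81; adjusted p = 0.574, unadjusted p = 0.0109). A two-sided exact permutation test of mean log2 CPM gave p = 0.3, and the smallest p that 3 libraries a group allow is 0.1. Without shNT replicate 3, Myc averaged 6.24 ± 2.81 CPM in shIGF2BP1 (SD, n = 3) and 8.48 CPM in the other 2 shNT libraries, and the log2 fold change was -0.44 (edgeR adjusted p = 0.9995, unadjusted p = 0.359). In bulk RNA, fewer cells with the transcript and less of it in each cell cannot be told apart.

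The stretch of Myc that corresponds to the reported contact of IGF2BP1 is the end of its coding sequence. The last 83 codons before the stop codon are shown for Myc and for Mycn, because these 2 transcripts are compared throughout. They are 249 bases each, from GENCODE M21 transcripts, with the Myc stretch at chr15:61989657-61989905 (plus strand) and the Mycn stretch at chr12:12937009-12937257 (minus strand) in GRCm38. Both encode the basic helix-loop-helix leucine zipper end of the protein. Capitals mark the 4 letters GGAC, the core of the site in which the adenosine can carry the m6A mark that IGF2BP proteins are reported to read in human cells.
Myc: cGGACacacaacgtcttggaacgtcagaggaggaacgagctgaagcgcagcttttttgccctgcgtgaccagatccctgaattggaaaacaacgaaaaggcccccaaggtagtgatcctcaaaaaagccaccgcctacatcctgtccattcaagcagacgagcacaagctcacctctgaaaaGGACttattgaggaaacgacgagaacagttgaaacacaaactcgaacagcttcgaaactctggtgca
Mycn: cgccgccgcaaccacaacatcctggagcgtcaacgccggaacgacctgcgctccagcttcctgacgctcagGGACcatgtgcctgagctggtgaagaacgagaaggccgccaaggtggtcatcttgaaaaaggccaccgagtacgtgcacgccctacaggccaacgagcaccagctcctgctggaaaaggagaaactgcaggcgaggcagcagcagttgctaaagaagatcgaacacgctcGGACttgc
Each stretch held 2 such words, and the whole coding sequence held 7 in Myc and 8 in Mycn. Over 255 aligned columns the stretches were identical at 61.2%. A match of 4 letters is a description of the sequence and not a measured site.

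Mycn, the neuroblastoma oncogene, was similar in all 6 libraries. The gene (ENSMUSG00000037169) spans 12936093 to 12941914 of chromosome 12, minus strand. It had 44.2, 50.7 and 39.0 CPM in replicates 1 to 3 of shIGF2BP1, against 51.7, 31.5 and 34.3 CPM in replicates 1 to 3 of shNT. The shNT range enclosed the shIGF2BP1 range. Its log2 fold change was 0.19 ± 0.24 (SE; 95% interval -0.34 to 0.72; edgeR adjusted p = 0.918). The exact two-sided permutation p was 0.5. Mycl, the family member first found in small cell lung cancer, lies on chromosome 4 from 122995652 to 123002485 (plus strand, ENSMUSG00000028654). It had 11.3, 18.1 and 13.6 CPM in shIGF2BP1, against 11.5, 7.69 and 11.5 CPM in shNT. The ranges overlapped by the margin between shIGF2BP1 replicate 1 and shNT replicates 1 and 3, and the log2 fold change was 0.49 ± 0.29 (95% interval -0.16 to 1.14, edgeR adjusted p = 0.787).

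Set against each other within a library, Mycn exceeded Myc in 5 of 6 libraries. Per kilobase of exon, the log2 ratio of the Myc level to the Mycn level was -3.52, -2.61 and -1.89 in shIGF2BP1 replicates 1 to 3, against -2.82, -1.25 and 2.097 in shNT replicates 1 to 3. In shNT replicate 3 the Myc level was 4.28 times the Mycn level, and in the other 5 libraries the Mycn level was 2.38 to 11.5 times the Myc level. The ratio averaged -2.67 ± 0.82 in shIGF2BP1 and -0.66 ± 2.51 in shNT (SD, n = 3 each). Without shNT replicate 3 the shNT values were -2.82 and -1.25, which overlap those of shIGF2BP1. The spread of the ratio within shNT was larger than the distance between the group means. The turn of the ratio in shNT replicate 3 came from Myc, since Mycn in that library, at 34.3 CPM, lay between the other values of its group.

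**Figure D1:**
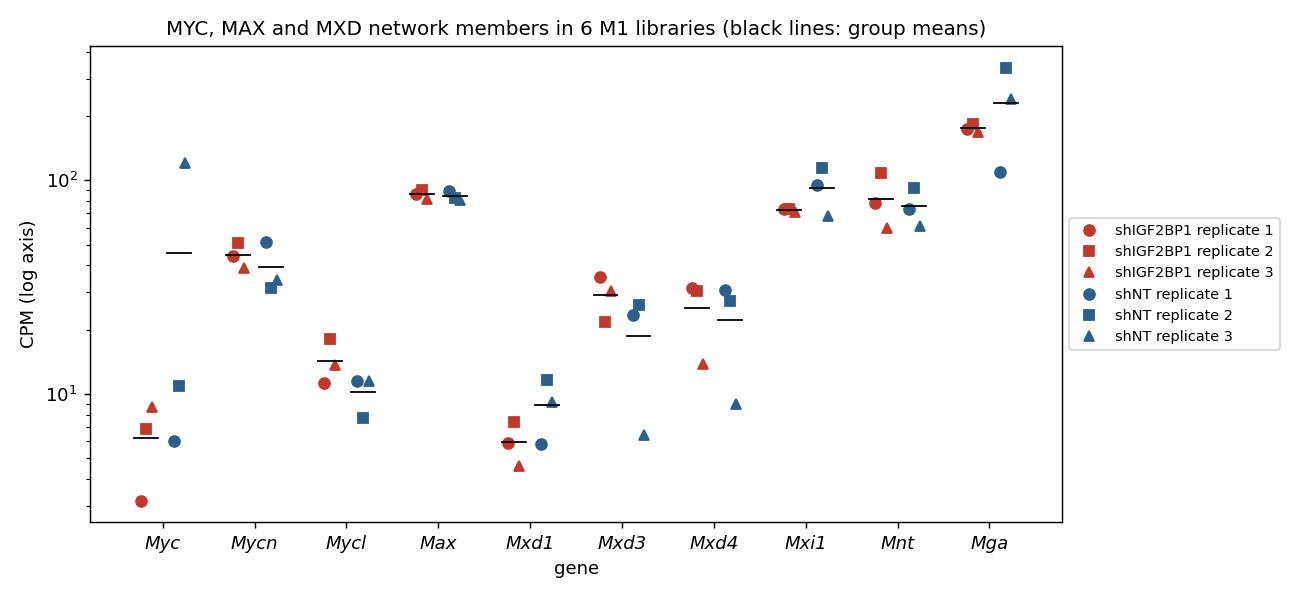
CPM on a log axis of the 10 network members in each of the 6 libraries, with shIGF2BP1 in red to the left and shNT in blue to the right of each gene; marker shapes give the replicate and black lines the group means. The Myc point of shNT replicate 3 lies at 121 CPM while the other 5 lie between 3.17 and 10.9 CPM, and the same library has the lowest Mxd3, at 6.41 CPM.

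Max, the partner that all of these factors need, had the narrowest spread of the network. The gene (ENSMUSG00000059436) spans 76937269 to 76962201 of chromosome 12, minus strand. It had 86.1, 89.95 and 82.0 CPM in shIGF2BP1, against 88.9, 82.7 and 81.2 CPM in shNT. Its log2 fold change was 0.03 ± 0.18, and the 95% interval ran from -0.36 to 0.42 (edgeR adjusted p = 0.983). Differences of 2-fold in either direction lie outside that interval.

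Promoter windows from RefSeq (GRCm38.p6) were matched by symbol for 9 members, Mxi1 with more than 1 window. Myc had no window, so its promoter was not searched. The windows were searched for the E-box CACGTG, which reads the same on both strands. It is the word that MYC:MAX and MXD:MAX dimers bind best. Each window has 300 bases and ends 50 bases past an annotated transcription start. The word was found in 3 of 11 windows, those of Max, Mnt and Mxd4, and in 2349 of 32851 windows of all genes (7.15%). The 3 windows are shown with the word in capitals, for Max at chr12:76962199-76962498 (minus strand), for Mnt at chr11:74830674-74830973 (plus strand) and for Mxd4 at chr5:34187661-34187960 (minus strand).
Max: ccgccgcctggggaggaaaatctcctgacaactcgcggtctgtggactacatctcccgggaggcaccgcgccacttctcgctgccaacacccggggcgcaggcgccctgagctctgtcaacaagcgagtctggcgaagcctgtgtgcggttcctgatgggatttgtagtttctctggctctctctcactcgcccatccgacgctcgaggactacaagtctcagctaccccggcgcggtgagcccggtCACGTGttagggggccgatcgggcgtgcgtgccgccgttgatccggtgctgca
Mnt: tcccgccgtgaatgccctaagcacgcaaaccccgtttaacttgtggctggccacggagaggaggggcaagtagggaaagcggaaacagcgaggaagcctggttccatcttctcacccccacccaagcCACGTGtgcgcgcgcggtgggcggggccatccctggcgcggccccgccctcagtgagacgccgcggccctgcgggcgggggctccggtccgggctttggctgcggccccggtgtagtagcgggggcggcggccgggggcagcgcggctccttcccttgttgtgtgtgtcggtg
Mxd4: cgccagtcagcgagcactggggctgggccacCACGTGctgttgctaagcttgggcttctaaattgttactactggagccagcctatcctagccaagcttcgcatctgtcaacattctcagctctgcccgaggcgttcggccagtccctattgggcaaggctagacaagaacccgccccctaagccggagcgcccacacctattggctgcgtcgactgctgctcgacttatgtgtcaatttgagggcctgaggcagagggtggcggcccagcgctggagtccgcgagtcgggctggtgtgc
The word began 3 bases before the annotated start in Max, 123 bases before it in Mnt and 219 bases before it in Mxd4. Of these 3 genes Mxd4 was low in shNT replicate 3, Mnt was within the range of the other libraries there, and Max was level. A match is a description and says nothing of binding in these cells.

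The MXD genes had fitted differences in both directions. Mxd1, the first described antagonist and usually tied to differentiation, lies on chromosome 6 from 86647042 to 86669161 (minus strand, ENSMUSG00000001156). It had 5.87, 7.40 and 4.59 CPM in shIGF2BP1, against 5.83, 11.6 and 9.19 CPM in shNT. The shNT replicate 1 value lay inside the shIGF2BP1 range, and the log2 fold change was -0.58 ± 0.35 (edgeR adjusted p = 0.793). Mxi1, which is also known as MXD2, lies on chromosome 19 from 53310518 to 53375810 (plus strand, ENSMUSG00000025025). It had 73.4, 73.4 and 71.0 CPM in shIGF2BP1, against 95.2, 114 and 68.1 CPM in shNT. Here shNT replicate 3 was the lowest of the 6 libraries and the other 2 shNT libraries were the highest. Between groups it was -0.35 ± 0.22 on the log2 scale (edgeR adjusted p = 0.794), and -0.53 without shNT replicate 3 (edgeR adjusted p = 0.952, unadjusted p = 0.0215).

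Mxd3 and Mxd4 shared a low value in the library where Myc was high. Mxd3, which is known for expression in S phase of proliferating progenitors, lies on chromosome 13 from 55325168 to 55329823 (minus strand, ENSMUSG00000021485). It had 35.2, 21.7 and 30.4 CPM in shIGF2BP1, against 23.3, 26.2 and 6.41 CPM in shNT. The value of shNT replicate 3 was 3.39 times below the next lowest library, and the log2 fold change was 0.64 ± 0.43 (edgeR adjusted p = 0.814), or 0.23 without that library. Mxd4, a member linked to differentiated and resting cells, lies on chromosome 5 from 34173883 to 34187720 (minus strand, ENSMUSG00000037235). It had 31.3, 30.5 and 13.8 CPM in shIGF2BP1, against 30.5, 27.4 and 8.98 CPM in shNT. Both groups thus had 2 libraries near 30 CPM and a lower replicate 3. Its log2 fold change was 0.18 ± 0.44 (edgeR adjusted p = 0.956) and turned to -0.20 without shNT replicate 3. Mxd3 shares 105 of its 2369 exon bases with Prelid1 on the other strand, Mxd4 shares 514 of 8483 with an antisense gene and Mxi1 194 of 6823 with Gm10197. The strand setting of the counting is not given, so reads there are uncertain. Prelid1 had 235.7, 161 and 297 CPM in shIGF2BP1 and 236, 229 and 188 CPM in shNT, and Gm10197 had at most 4 counts.

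Mnt and Mga, the large antagonists, differed between groups by less than the test could call. Mnt, the most widely expressed MAX-binding repressor, lies on chromosome 11 from 74830920 to 74845725 (plus strand, ENSMUSG00000000282). It had 78.3, 108 and 59.9 CPM in shIGF2BP1, against 73.7, 91.7 and 61.1 CPM in shNT. In both groups replicate 2 was highest and replicate 3 lowest, although replicate numbers need not pair the samples. For Mnt the log2 fold change was 0.12 ± 0.25 (edgeR adjusted p = 0.951), and it was -0.01 without shNT replicate 3 and -0.12 without shIGF2BP1 replicate 2. Mga, which carries a T-box domain as well and works in a polycomb-type repressor complex, lies on chromosome 2 from 119897228 to 119969581 (plus strand, ENSMUSG00000033943). It had 175, 184 and 168 CPM in shIGF2BP1, against 110.0, 337 and 241 CPM in shNT. The 3 shIGF2BP1 libraries were close together and the shNT libraries lay on both sides of them. For Mga the fitted difference was -0.39 ± 0.33 on the log2 scale (edgeR adjusted p = 0.871), or -0.001 without shNT replicate 2 and -0.72 without shNT replicate 1.

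Across the network, edgeR called 0 of 10 members at an adjusted p under 0.05, where 3 of 13445 genes tested (0.0223%) were called. The adjusted p values of the members ran from 0.574 for Myc to 0.983 for Max. At an unadjusted p under 0.05 edgeR counted 1 member, Myc, beside 962 of all genes tested (7.16%). DESeq2 called 0 members, with 82 of all genes (0.61%). The CPM values of the groups did not overlap in 0 of 10 members, against 1566 of 13445 genes (11.6%). The log2 fold change had a median of 0.07, beside -0.01 for all genes tested. It was positive in 6 members and negative in 4, beside 48.5% positive among all genes tested. Without shNT replicate 3 it was negative in 6 of 10, with a median of -0.11, and without shIGF2BP1 replicate 2 the median was -0.05.

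**Figure D2:**
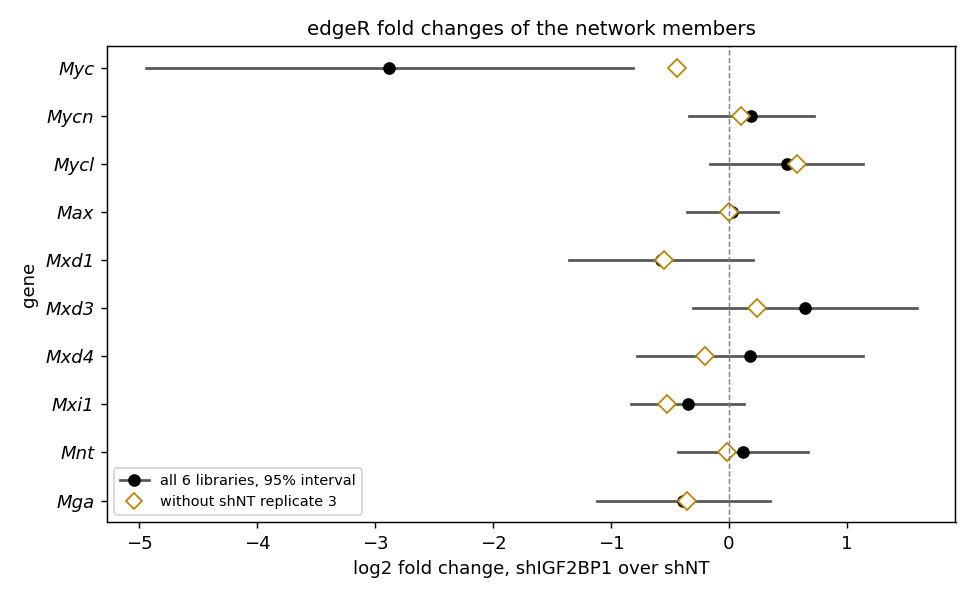
edgeR log2 fold changes of shIGF2BP1 over shNT for the 10 members (black points, with 95% intervals as lines) and the same without shNT replicate 3 (open diamonds). The Myc value of -2.88 becomes -0.44 without that library, and only the Myc interval leaves out 0.

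The order of levels could be compared between genes only per length. In CPM per kilobase of exon, the shIGF2BP1 means ran from Max (23.9 ± 1.10) through Mnt (17.7 ± 5.23), Mycn (13.5 ± 1.78), Mxd3 (12.3 ± 2.89), Mga (11.4 ± 0.498) and Mxi1 (10.6 ± 0.201) to Mycl (3.55 ± 0.852), Mxd4 (2.97 ± 1.16), Myc (2.30 ± 1.03) and Mxd1 (0.842 ± 0.199; SD, n = 3 each). Neighbours in that order overlapped between libraries except at 3 steps, from Mga to Mxi1, from Mxi1 to Mycl and from Myc to Mxd1. In shNT the order by the median library was Max (23.0), Mnt (15.9), Mga (15.7), Mxi1 (14.0), Mycn (10.4), Mxd3 (9.84), Myc (4.02), Mxd4 (3.23), Mycl (2.85) and Mxd1 (1.30). By the mean, Myc was second in shNT, through the 44.5 CPM per kilobase of replicate 3. The lengths are unions of all annotated exons, which exceed the longest transcript by different amounts, as in Max (3598 against 1942 bases) and Mxd4 (8483 against 4627 bases). Divided by the longest transcript instead, the shIGF2BP1 mean of Mycn (16.7) lay beside that of Mxd3 (16.7). Max (44.3) still led and Mxd1 (1.28) still came last. Mxi1 (14.4) came before Mga (12.6), and Mxd4 (5.45) before Mycl (4.09). The order within these pairs thus depends on the length used.

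Summed per kilobase, MYC family transcripts were similar in 5 libraries and higher in 1. The sum of Myc, Mycn and Mycl was 17.4, 22.4 and 18.4 CPM per kilobase in shIGF2BP1, against 20.8, 15.5 and 57.7 in shNT. Myc made up 6.71%, 11.3% and 17.3% of that sum in shIGF2BP1, against 10.7%, 26.0% and 77.1% in shNT. Mycn made up 77.2%, 68.7% and 64.3% in shIGF2BP1, against 75.6%, 61.7% and 18.02% in shNT. Mycn was thus the main family transcript in all libraries but shNT replicate 3.

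The 6 antagonists together exceeded the family in the same 5 libraries. Their sum was 58.5, 59.9 and 49.5 CPM per kilobase in shIGF2BP1, against 51.3, 74.4 and 43.9 in shNT. The family sum divided by the antagonist sum was 0.297, 0.374 and 0.372 in shIGF2BP1, against 0.405, 0.208 and 1.31 in shNT. With Myc left out of the family sum the ratio was 0.277, 0.332 and 0.308 in shIGF2BP1, against 0.361, 0.154 and 0.301 in shNT, so shNT replicate 3 then lay inside the range of the others. The family sum divided by the Max level was 0.726, 0.895 and 0.808 in shIGF2BP1, against 0.84, 0.673 and 2.56 in shNT. These are mRNA ratios, and MYC proteins are known for short and regulated lifetimes that mRNA does not show.

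**Figure D3:**
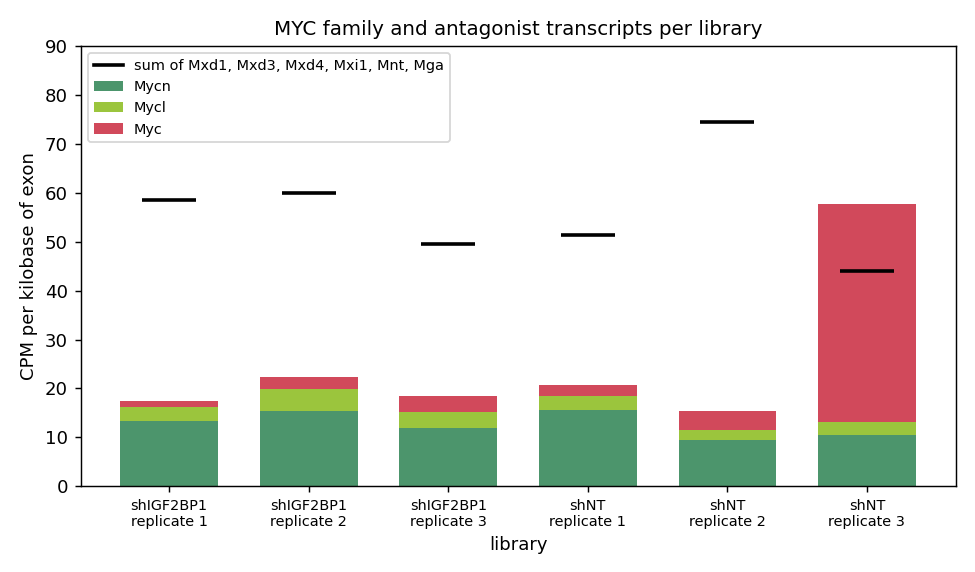
Stacked bars of Mycn, Mycl and Myc in CPM per kilobase of exon for each library, shIGF2BP1 on the left and shNT on the right, with a black line at the sum of the 6 antagonists. The bar passes the line only in shNT replicate 3, where Myc adds 44.5 to the family sum of 57.7.

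The excess of Myc in shNT replicate 3 was compared with that of other genes. Among 10480 genes with a mean of 5 CPM or more, Myc had the largest ratio between this library and the highest of the other 5, and it ranked 2 among all 13445 genes tested. In that library 9 genes were 4-fold or more above all others and 116 were 2-fold or more, and in each of the other 5 libraries 0 genes passed 4-fold and 1 to 37 passed 2-fold. Among all 13445 genes tested, low ones included, 20 genes passed 4-fold and 171 passed 2-fold in shNT replicate 3, and 15 and 173 did in shIGF2BP1 replicate 2. By how far shNT replicate 3 lay below the lowest of the other 5 libraries, Mxd3 ranked 11 among the 10480 genes and 54 among all genes tested. The 5 genes whose centred log2 CPM lay nearest to that of Myc over the 6 libraries were Atf3, Plk2, Tnfrsf12a, Fosl1 and Ppp1r15a, at root mean square distances of 0.35, 0.56, 0.62, 0.63 and 0.66. Atf3, a stress-induced transcription factor, had 2.56, 3.80 and 7.37 CPM in shIGF2BP1, against 5.19, 8.13 and 54.8 CPM in shNT. Its edgeR log2 fold change was -2.31 ± 0.78 (edgeR adjusted p = 0.606). Atf3 averaged 4.57 CPM in shIGF2BP1 and 6.66 CPM in shNT with shNT replicate 3 left out. Fosl1 encodes a FOS-related part of AP-1 and had 18.5, 39.3 and 40.3 CPM in shIGF2BP1, against 53.2, 33.7 and 280 CPM in shNT. Fosl1 averaged 32.7 CPM in shIGF2BP1 and 43.5 CPM in shNT with that library left out. The 5 genes nearest to Mycn were Arhgef19, Dcn, Trmt44, Hacd3 and Uri1, at distances of 0.05 to 0.07, and their log2 fold changes lay between 0.09 and 0.29. Genes picked by this distance share the pattern of Myc or Mycn by choice.

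Genes beside Myc and Mycn on the chromosome differed in how they went with them. Pvt1, a non-coding RNA gene next to Myc on chromosome 15, had 10.2, 15.03 and 18.9 CPM in shIGF2BP1, against 16.6, 18.1 and 42.0 CPM in shNT. Its value in shNT replicate 3 was 2.23 times the next highest library, and the log2 fold change was -0.80 ± 0.38 (edgeR adjusted p = 0.723). Without that library it averaged 14.7 CPM in shIGF2BP1 and 17.3 CPM in shNT. Of 7 genes listed around Myc, 5 were tested, 3 positive and 2 negative, and 0 were called. Ddx1, the RNA helicase gene next to Mycn, had 284, 257 and 331 CPM in shIGF2BP1, against 257, 264 and 270 CPM in shNT (log2 fold change 0.14, edgeR adjusted p = 0.928). Of 8 genes listed around Mycn 3 were tested, 1 positive and 2 negative, with a median of -0.35 and 0 called. The negative ones, Nbas (-0.35) and Trib2 (-0.38), were both highest in shNT replicate 3.

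**Figure D4:**
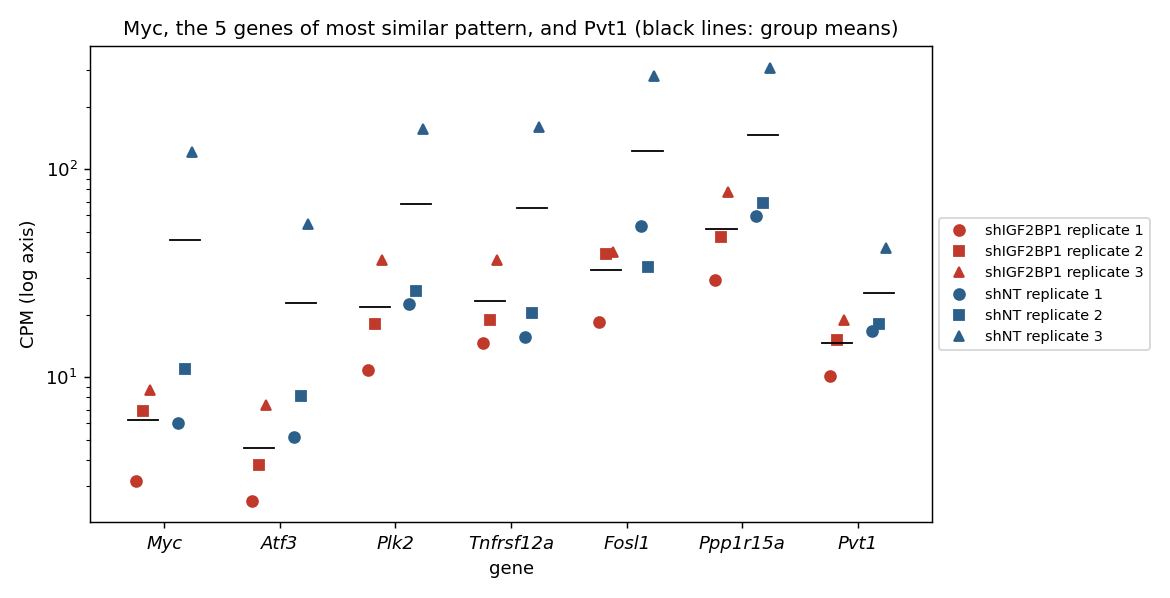
CPM on a log axis of Myc, the 5 genes with the most similar pattern and Pvt1, with shIGF2BP1 in red to the left and shNT in blue to the right of each gene; black lines are group means. In each of the 7 genes shNT replicate 3 is the highest of the 6 libraries. The 5 similar genes were chosen for the Myc pattern, so for them this follows from the choice.

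Immediate early genes, the transcription factors and feedback genes that cells switch on within minutes of a growth or stress signal, were also high in that library. Of 18 listed, all were tested, and 13 had their highest CPM in shNT replicate 3, beside 24.5% of all genes tested. The list's median log2 CPM, centred on each gene's mean over the libraries, was -0.21, 0.08 and -0.34 in shIGF2BP1, against 0.21, -0.66 and 1.12 in shNT. Between groups 15 of 18 were negative, beside 6925 of 13445 genes tested. The median log2 fold change was -0.64, and 0 were called. Without shNT replicate 3, 11 of 18 were negative, with a median of -0.12. Their part in the Myc result was not tested.

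The linked MLX arm of the network uses MLX as its shared partner and answers to glucose. Mlx had 35.4, 36.3 and 34.1 CPM in shIGF2BP1, against 31.6, 29.2 and 29.1 CPM in shNT, and the groups did not overlap (log2 fold change 0.23 ± 0.19, edgeR adjusted p = 0.86). Mlxip, which encodes the glucose-responsive factor MondoA, had 67.2, 68.7 and 66.1 CPM in shIGF2BP1, against 45.3, 87.0 and 80.7 CPM in shNT, with shNT values on both sides. Txnip, a known MondoA target, had 676, 833 and 335 CPM in shIGF2BP1, against 2194, 1539 and 3847 CPM in shNT. The groups did not overlap, and the log2 fold change was -2.04 ± 0.43 (edgeR adjusted p = 0.289). DESeq2 called Txnip (adjusted p = 5.86e-05) and edgeR did not. Mlxipl had 0 counts in all 6 libraries and Arrdc4 had 1 count in all, so 3 of 5 genes of this arm were tested.

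Classical MYC-induced targets lay near the level of all genes as a list. Of 32 MYC-induced targets, among them genes of ribosome assembly, nucleotide synthesis and polyamine synthesis, 15 were higher and 17 lower in shIGF2BP1 by fitted value. Their median log2 fold change was -0.06, beside -0.01 for all genes tested, and ran from -0.15 without shIGF2BP1 replicate 3 to 0.11 without shIGF2BP1 replicate 2. None was called (0 of 32), and 1 had an unadjusted p under 0.05. In shNT replicate 3, with the high Myc, the centred median of this list was 0.01 on the log2 scale, inside the range of -0.20 to 0.19 of the other 5 libraries. Single targets differed from that median. Nop58, a nucleolar protein of small RNA particles, had 285, 259 and 233 CPM in shIGF2BP1, against 268, 218 and 492 CPM in shNT. Npm1, a nucleolar chaperone, had 2134, 1957 and 1934 CPM in shIGF2BP1, against 3026, 2535 and 1571 CPM in shNT, and was lowest where Myc was highest. Odc1, the first enzyme of polyamine synthesis, had 312, 233 and 503 CPM in shIGF2BP1, against 305, 342 and 437 CPM in shNT. The member with the smallest p was Slc7a5, an amino acid transporter that also answers to stress, with 119, 170.2 and 290 CPM in shIGF2BP1, against 361, 374 and 537 CPM in shNT. The groups did not overlap, and its log2 fold change was -1.14 ± 0.32 (edgeR adjusted p = 0.497).

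Genes that MYC is known to repress had a negative median. Pdgfrb and Col1a2 of this list are also fibroblast markers, whose list summed to 579 to 1057 CPM in shIGF2BP1 and 634 to 956.1 CPM in shNT. Of 20 listed, 15 were tested, 12 of them negative and 3 positive, beside 6925 negative of 13445 genes tested. The median log2 fold change was -0.34, with 0 called. Without shNT replicate 3 the median was -0.26, with 13 of 15 negative. The centred median log2 CPM of this list was -0.21, -0.22 and 0.0003 in shIGF2BP1, against -0.15, 0.32 and 0.35 in shNT. It was thus highest in shNT replicate 3, the library with the high Myc, and shNT replicate 1 lay inside the shIGF2BP1 range. Gadd45a, a growth arrest gene that damage and stress induce, had 43.9, 88.1 and 93.0 CPM in shIGF2BP1, against 91.5, 108 and 330 CPM in shNT (log2 fold change -1.23 ± 0.46, edgeR adjusted p = 0.652). Gadd45a averaged 75.0 CPM in shIGF2BP1 and 99.6 CPM in shNT with shNT replicate 3 left out. Ndrg1, a gene that hypoxia also induces, had 53.6, 76.4 and 98.5 CPM in shIGF2BP1, against 47.7, 225 and 194 CPM in shNT. Cdkn2b and Cebpa had 0 counts in all libraries.

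**Figure D5:**
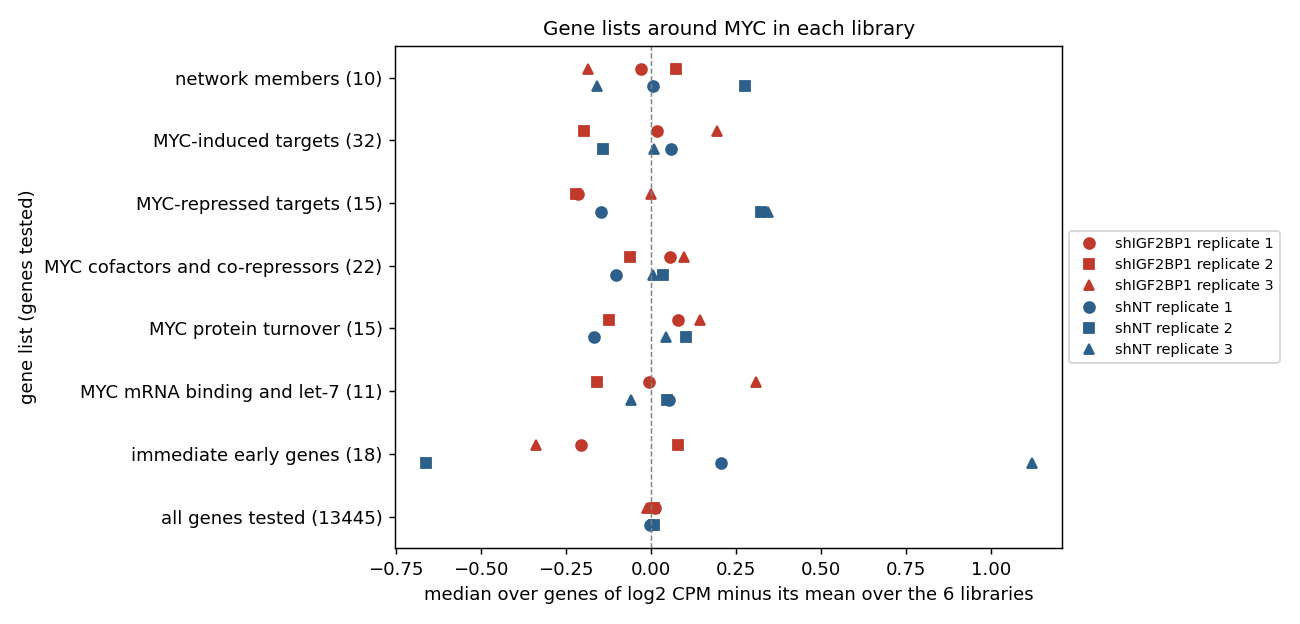
Median over the tested genes of a list of log2 CPM minus the gene's mean over the 6 libraries, 1 point per library, with shIGF2BP1 in red above and shNT in blue below each line; the number tested is in brackets. Immediate early genes reach 1.12 in shNT replicate 3, while MYC-induced targets stay at 0.01 there.

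Lists of proteins that work on MYC had medians, over all 6 libraries, a little above that of all genes tested (-0.01). Of 22 cofactors and co-repressors 16 were positive, beside 48.5% of all genes tested, and 0 were called. Their median log2 fold change was 0.12. Hdac1, a histone deacetylase of the co-repressor complexes that MXD proteins recruit, had 173, 128 and 165 CPM in shIGF2BP1, against 131, 94.7 and 106 CPM in shNT (log2 fold change 0.49 ± 0.21, edgeR adjusted p = 0.687). Of 15 genes of MYC protein turnover 9 were positive, with a median of 0.08 and 0 called. Stub1, a ubiquitin ligase, had 177, 185 and 179 CPM in shIGF2BP1, against 151, 128 and 102 CPM in shNT, without overlap (log2 fold change 0.50 ± 0.20, edgeR adjusted p = 0.684). Aurka, the kinase that stabilises MYCN protein, had 107, 77.9 and 142 CPM in shIGF2BP1, against 148, 191 and 138 CPM in shNT (log2 fold change -0.55 ± 0.25, edgeR adjusted p = 0.695). Of 13 genes of MYC mRNA binding and the let-7 axis 11 were tested, 7 positive and 4 negative, with a median of 0.10 and 0 called. Without shNT replicate 1 the medians were 0.03 for cofactors, -0.07 for turnover and -0.04 for the mRNA binding list. Without shIGF2BP1 replicate 3 they were 0.04, -0.03 and -0.05 in the same order, and without shIGF2BP1 replicate 2 they were 0.13, 0.14 and 0.25. Of 10 Wnt targets 4 were tested, 3 positive and 1 negative. That 1 was Axin2, a feedback inhibitor of the pathway, at 5.47 ± 1.09 CPM in shIGF2BP1 and 10.4 ± 2.78 CPM in shNT (SD, n = 3 each; edgeR adjusted p = 0.62).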

How the data were processed

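Per the labels' protocols, poly-A RNA of M1 cells was made into stranded mRNA libraries and sequenced paired-end. Tools named in the submitters' processing notes are HISAT2 2.1.0, HTSeq and bcl2fastq, with build GRCm38. Annotation, strand setting and read filters: not given in the sources used here. The deposited file holds raw read counts per gene, 1 column per library and joined to samples by library name. Its 92 spike-in rows have 0 counts and were left out.

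Symbols, positions and exon lengths came from GENCODE M21 (GRCm38). They matched 42548 of 43629 IDs, and the rest held 0.111% of counts. Counts were tested with edgeR 4.0.16 in R 4.3.3 (TMM, filterByExpr at a minimum count of 10, robust quasi-likelihood F test, two-sided, no covariates), with Benjamini-Hochberg adjustment over 13445 genes. SE is the log2 fold change divided by the square root of F. CPM uses TMM library sizes. Distances between genes used log2 CPM with a prior count of 2. DESeq2 1.42.0 and limma 3.58.1 were alternatives. The tests were also run on simulated counts in which some genes were changed by known folds between groups. No simulated library was set apart as shNT replicate 3 is, so that run does not bear on such a library. Its outcome is not reported here.

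The members, the 13 other lists and the naming rule were chosen with earlier results of these data known. The rule took the members, Igf2bp1, up to 4 genes of each list with the smallest p, the 5 genes nearest Myc and Mycn, and locus neighbours. Not all of these are printed, and Npm1, Nop58, Odc1, Prelid1, Gm10197, Mlxipl, Arrdc4, Cdkn2b, Cebpa and marker genes outside the rule were chosen after their values were seen. Lists are described by counts and medians, without a test. Some genes of these lists are not reported here.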

Additional observations from a re-analysis of the deposited data

How the results depend on the processing

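No setting called a member: 0 of 10 had an adjusted p under 0.05 in the main edgeR fit and in each of 13 alternative fits, and 0 at an adjusted p of 0.01. The count over all genes, 3, was 3 both under RLE and under plain library sizes, 82 with DESeq2, 138 with no filter on low counts, 18 with the replicate block, 1 with limma-voom, with a mean of 5 CPM or more, or at an adjusted p of 0.01, and 1 to 5 when libraries were left out. Of the member fold changes under these fits 126 kept their sign and 4 changed it. With single libraries left out, Mxd4 ran from -0.20 (without shNT replicate 3) to 0.48, with -0.0083 without shIGF2BP1 replicate 1, and Mnt from -0.12 (without shIGF2BP1 replicate 2) to 0.30, with -0.01 without shNT replicate 3. Myc kept its direction in all 13, from -3.41 without shNT replicate 1 to -0.44 without shNT replicate 3, and was -1.77 with the replicate block (edgeR adjusted p = 0.552) and -1.80 with limma-voom. Mycn lay between 0.05 and 0.44. With the longest transcript or with plain counts, the log2 Myc to Mycn ratio moved by less than its spread between replicates. Each choice shifts all 6 libraries by the same amount, which the gene lengths set. It therefore cannot change the differences between libraries or groups. Deviations of same-numbered libraries correlated at 0.19, -0.09 and 0.28, and those of differently numbered libraries at -0.37 to 0.22. The labels do not say that numbers pair the samples, so the replicate block was kept as an alternative. The alternatives for list medians, library excess and family sums were added after seeing the data. The cause of the changes was not tested.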
